A study of Homo sapiens with 12 samples.

Results

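Insulin receptor signalling was followed through 9 genes in neural cultures made from human embryonic stem cells. The genes were listed by name and matched by symbol to the 63925 gene IDs of the count tables, and each symbol matched 1 ID. They are the receptors INSR and IGF1R, the adaptors IRS1 and IRS2, the PI3K (phosphoinositide 3-kinase) subunits PIK3CA, PIK3R1 and PIK3R3, and the transcription factors FOXO1 and FOXO3. All 9 passed the filter on low counts, with between 308 and 5943 reads per gene and library. The cultures came from the embryonic stem cell lines H9 and H1 and had been differentiated for 10 weeks by dual inhibition of SMAD signalling. In each line, 3 sister cultures received 1 µM dexamethasone, a synthetic glucocorticoid, for 6 h, and 3 received its solvent DMSO (vehicle). Polyadenylated RNA was sequenced, which gave 12 libraries in 4 groups. All groups had been grown in neurobasal medium with 2% B-27 supplement, ascorbic acid, cyclic AMP, BDNF and GDNF. The standard form of B-27 contains insulin and a corticosteroid, and the labels do not name the form used. Each line is 1 genome, and sister cultures share a line and protocol, so a p-value here covers only how far sister cultures vary.

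Insulin and insulin-like growth factors bind INSR and IGF1R, receptor tyrosine kinases that phosphorylate IRS1 and IRS2. The phosphorylated adaptors recruit PI3K, a dimer of a catalytic subunit such as p110 alpha, encoded by PIK3CA, and a regulatory subunit encoded by PIK3R1, PIK3R2 or PIK3R3. The lipid that PI3K makes activates AKT kinases, which phosphorylate FOXO1 and FOXO3 and keep them out of the nucleus, where they otherwise switch on genes of stress resistance, growth arrest and fasting metabolism. In the brain the pathway supports the growth and survival of neurons and glia, and in muscle, fat and liver glucocorticoids are known to oppose the action of insulin.

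Total counts lay between 14751168 and 27505804 per library. H9 vehicle culture 3 stood apart: it had the smallest total, against at least 20871163 in the others, and 0.607% of its counts were mitochondrial, against 4.80% to 5.64% in the other H9 libraries. Its root mean square distance to its sister cultures was 0.853 on the log2 scale, and the other 11 libraries lay between 0.268 and 0.511. Values without this library are given below where leaving it out moved a call, turned the sign of a difference over both lines or between the vehicle cultures, or moved a value that rested on it. The treated libraries carried their label in FKBP5, a target of the glucocorticoid receptor, which was 2.35 ± 0.11 higher (log2, SE) with dexamethasone over both lines. Of the other targets checked, TSC22D3, PER1, KLF9 and ZBTB16 lay above all vehicle cultures of the line in every treated culture. DUSP1 overlapped between treatments in both lines. Neuronal marker genes summed to between 3783 and 6255 CPM (TMM-scaled counts relative to library size) in every library, and the microglial markers to at most 0.892 CPM. The 9 markers of radial glia and neural progenitors summed to between 4477 and 8252 CPM, the highest in H9 vehicle culture 3. Of these markers 2, SOX2 and HES5, were listed at 0 in all libraries. The markers did not all go with the sum. NES stood at 5545 CPM in H9 vehicle culture 3 and at 1057 and 1094 CPM in its sister cultures. VIM, FABP7, PAX6, HES1 and SLC1A3 were lower in H9 vehicle culture 3 than in either sister culture.

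The regulatory subunit gene PIK3R1 was the member with the largest change with dexamethasone over both lines. PIK3R1 lies on chromosome 5 from 68215720 to 68301821 on the plus strand (GRCh38, GENCODE 29). It has several starts. The first start gives transcripts that code for 724 residues, the long regulatory subunit, and a start further downstream gives a transcript that codes for 454. Counts were summed per gene, so they do not tell which start was used. The sequences before these starts and before that of FOXO1 are shown because these genes are the members with the largest differences over both lines. They are RefSeq promoter windows of build GRCh38.p14, 5′ to 3′ on the strand of the gene, without the bases that GENCODE places in an exon. Capitals mark AGAACA, an arm of the palindromic glucocorticoid response element.
PIK3R1, first start, chr5:68215506-68215719: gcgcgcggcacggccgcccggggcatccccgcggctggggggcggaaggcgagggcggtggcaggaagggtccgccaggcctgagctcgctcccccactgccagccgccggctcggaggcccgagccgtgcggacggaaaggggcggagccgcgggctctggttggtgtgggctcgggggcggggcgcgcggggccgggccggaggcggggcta
PIK3R1, start of the 454-residue form, chr5:68290414-68290636: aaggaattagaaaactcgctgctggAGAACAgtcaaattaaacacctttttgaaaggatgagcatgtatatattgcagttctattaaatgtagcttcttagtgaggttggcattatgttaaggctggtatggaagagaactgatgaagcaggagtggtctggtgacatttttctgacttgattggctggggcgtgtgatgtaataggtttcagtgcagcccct
FOXO1, chr13:40666642-40666891 on the minus strand: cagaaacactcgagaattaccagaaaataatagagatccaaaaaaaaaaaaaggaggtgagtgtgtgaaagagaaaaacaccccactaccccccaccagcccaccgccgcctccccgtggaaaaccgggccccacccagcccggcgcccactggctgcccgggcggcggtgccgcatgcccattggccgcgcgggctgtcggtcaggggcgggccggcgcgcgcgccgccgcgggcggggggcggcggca

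This hexamer stood 225 to 220 bases before the RefSeq start of the 454-residue form of PIK3R1, and the other printed windows held none. Over the 20 RefSeq windows of the 9 members, each of 250 bases before a start, 3 windows of 2 genes, PIK3R1 and PIK3R3, held AGAACA on either strand. The 2 windows of PIK3R3 overlap and hold the same match, so these are 2 distinct sites, and several windows of a gene are not separate observations. The same letters were found in 12.4% of all 35116 windows of that length. A full response element, AGAACA and TGTTCT set 3 bases apart with at most 2 mismatches, was found in 0 of the 20 windows and in 1.18% of all windows. The FOXO site GTAAACA was found in 1 window, that of PIK3CA, against 2.98% of all windows, and the E-box CACGTG in 0, against 6.34%. These matches describe the letters of short windows and say nothing of sites elsewhere in the genes.

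Over both lines, 1 of the 9 members passed the test for dexamethasone, edgeR's quasi-likelihood test with Benjamini-Hochberg adjustment over 17819 genes, and 0.101% of all genes did so. That member was PIK3R1, which rose. The 9 members were listed with its earlier result in these data known, so their count beside the share of all genes is only a description. In the H9 vehicle cultures PIK3R1 stood at 138, 125 and 155 CPM, and in the H9 dexamethasone cultures at 227, 202 and 219 CPM. In the H1 vehicle cultures it stood at 137, 129.6 and 130.0 CPM, and in the H1 dexamethasone cultures at 185, 184 and 179.5 CPM. Every treated culture lay above every vehicle culture of its line, and the lowest treated value of all was above the highest vehicle value of all. The change over both lines was 0.55 ± 0.07 on the log2 scale (SE, adjusted p = 0.00598), and PIK3R1 remained past the threshold in each of 21 other fits, with changes from 0.52 to 0.59 and adjusted p from 4.56e-16 to 0.0426.

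**Figure D1:**
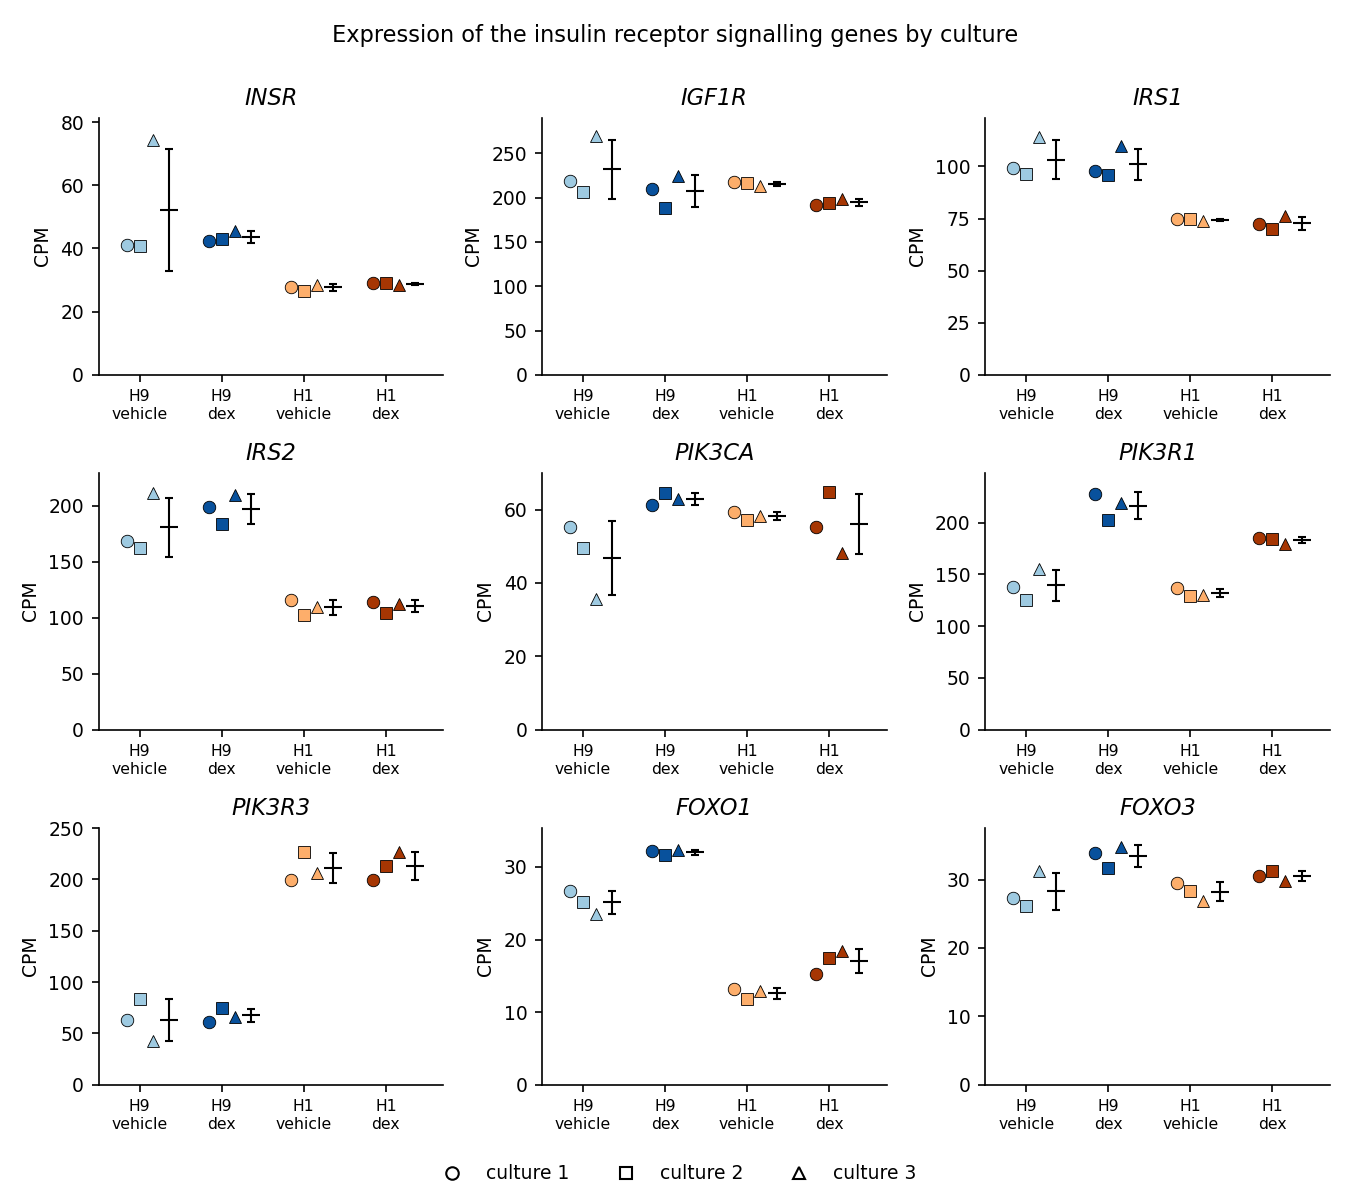
CPM of each of the 9 genes (y axis, from 0, a scale of its own in each panel) in the 12 cultures, by line and treatment (x axis). Points are cultures, with 1 symbol per culture number, and the bar beside them is the mean ± SD of 3 cultures. PIK3R1 lies higher with dexamethasone in both lines, PIK3R3 is higher in H1, and H9 vehicle culture 3 (triangle) stands off for INSR.

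Within H9, PIK3R1 rose by 0.63 ± 0.10 (SE, adjusted p = 0.0433 by edgeR), as 1 of 9 members against 0.0673% of all genes. This call rested on a narrow margin: it was lost when any 1 library other than H9 vehicle culture 3 was left out, with adjusted p up to 0.256, and when the H9 libraries were fitted alone (adjusted p = 0.596). Without H9 vehicle culture 3 the change was 0.71 ± 0.07 (adjusted p = 3.38e-05), and 1 of 9 members passed against 0.293% of genes. Within H1, 0 of 9 members passed by edgeR, against 0.0505% of all genes, and limma-voom called 0 as well. The members with an unadjusted p under 0.05 were 2, PIK3R1 and FOXO1. PIK3R1 in H1 differed by 0.47 ± 0.10 (adjusted p = 0.352). With the H1 libraries fitted alone it passed (adjusted p = 0.00195, background 0.296%). Without H9 vehicle culture 3 it also passed in H1, at 0.47 ± 0.06 (adjusted p = 0.00105), where 2 members passed against 0.326% of genes. The other was FOXO1, at 0.43 ± 0.09 (adjusted p = 0.048).

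The size of the PIK3R1 change was compared between the lines directly. It was 0.16 ± 0.14 larger in H9 (log2, SE, adjusted p = 0.583), a difference close to its own error, and 0.25 ± 0.09 without H9 vehicle culture 3 (adjusted p = 0.404). For the difference between lines 0 of 9 members passed by edgeR, 0% of all genes did, and DESeq2 and limma-voom also called 0 members. PIK3CA was the 1 member, among 1329 genes, with an unadjusted p under 0.05. Its change was 0.48 larger in H9, and from 0.32 to 0.64 larger when 1 library was left out, with 0 of these 12 fits past the threshold.

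FOXO1 and FOXO3 are the transcription factors at the end of this branch of the pathway. In the H9 vehicle cultures FOXO1 stood at 26.7, 25.1 and 23.5 CPM, and in the H9 dexamethasone cultures at 32.2, 31.7 and 32.3 CPM. In H1 the vehicle values were 13.2, 11.8 and 12.9 CPM, and the dexamethasone values 15.3, 17.4 and 18.5 CPM. The groups did not overlap in either line, but the difference over both lines, 0.39 ± 0.07, did not pass (adjusted p = 0.0959 by edgeR). It passed without H9 vehicle culture 3, at 0.37 ± 0.06 (adjusted p = 0.00838), where 2 of 9 members passed, PIK3R1 and FOXO1, against 0.774% of all genes. DESeq2 on all libraries also called those members over both lines, against 0.634% of genes. Within H9 it called PIK3R1 and FOXO1 against 0.875% of genes, and within H1 PIK3R1 against 0.14%.

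FOXO3 showed a smaller difference. Its values were 27.4, 26.1 and 31.3 CPM in the H9 vehicle cultures and 33.8, 31.7 and 34.8 CPM with dexamethasone. In H1 they were 29.5, 28.3 and 26.8 CPM with vehicle and 30.5, 31.2 and 29.8 CPM with dexamethasone. The groups again did not overlap, though the closest cultures of H1 were 29.5 and 29.8 CPM. The difference over both lines was 0.18 ± 0.07 (adjusted p = 0.605), and 0.22 ± 0.05 without H9 vehicle culture 3 (adjusted p = 0.0731), so it did not pass in either fit. In all, 3 members, PIK3R1, FOXO1 and FOXO3, were higher in every treated culture of both lines, and 0.763% of all genes tested were.

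**Figure D2:**
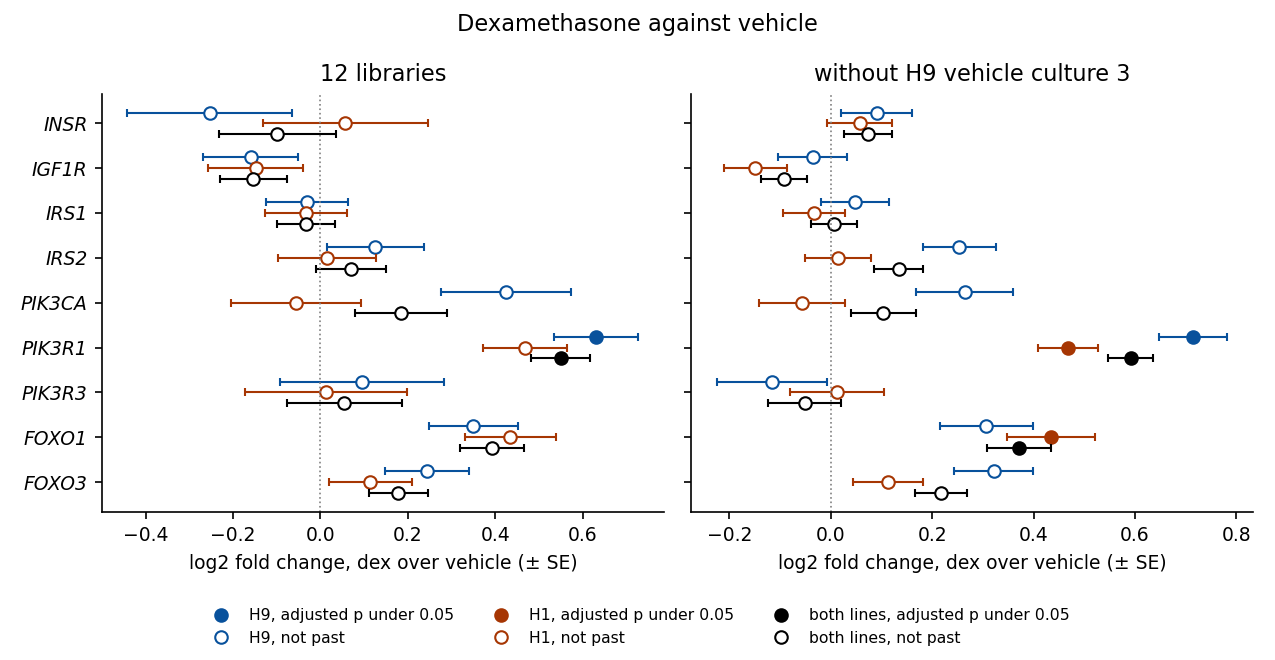
Log2 fold change of dexamethasone over vehicle with its SE (x axis) for each gene (y axis), in H9, in H1 and over both lines, from all 12 libraries (left) and without H9 vehicle culture 3 (right). Filled points passed an adjusted p of 0.05. PIK3R1 passed over both lines on each side, and FOXO1 passed over both lines and in H1 on the right only.

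The catalytic subunit gene PIK3CA stood at 55.1, 49.6 and 35.5 CPM in the H9 vehicle cultures and at 61.2, 64.4 and 63.0 CPM with dexamethasone. The treated cultures lay above the vehicle cultures, and the lowest value by far was that of H9 vehicle culture 3. The difference in H9 was 0.42 ± 0.15 and did not pass (adjusted p = 0.299), and without H9 vehicle culture 3 it was 0.26 ± 0.10 (adjusted p = 0.305). In H1 the vehicle values, 57.2 to 59.3 CPM, lay inside the range with dexamethasone, 48.2 to 64.7 CPM. PIK3CA shares 3403 of its 9494 exon bases with KCNMB3 on the opposite strand, and reads from there may not have been counted. PIK3R3 differed by 0.05 ± 0.13 over both lines, with overlapping groups in each, and by -0.05 ± 0.07 without H9 vehicle culture 3.

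The receptors and adaptors did not pass the test for dexamethasone. INSR stood at 41.2, 40.8 and 74.5 CPM in the H9 vehicle cultures and at 42.2, 42.9 and 45.7 CPM with dexamethasone, so that 1 library set the direction. Over both lines the INSR difference was -0.10 ± 0.13, and 0.07 ± 0.05 without H9 vehicle culture 3. IGF1R was lower in every H1 culture with dexamethasone (191, 194 and 199 CPM) than in any with vehicle (218, 216 and 213 CPM). It was the 1 member below vehicle without overlap in H1, as were 6.98% of all genes, and its difference of -0.15 ± 0.11 in H1 did not pass (adjusted p = 1.0 by edgeR). IRS1 differed by -0.03 ± 0.07 over both lines, and by 0.01 ± 0.05 without H9 vehicle culture 3.

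IRS2, an adaptor known for its part in insulin signalling in liver and brain, stood at 169, 162 and 211 CPM in the H9 vehicle cultures and at 198, 183 and 209.5 CPM with dexamethasone. The groups overlapped through H9 vehicle culture 3. Without it the difference in H9 was 0.25 ± 0.07 (adjusted p = 0.178), and in H1 it was 0.01 ± 0.06. Counted by overlap alone, 4 of 9 members were above vehicle in every treated H9 culture (PIK3CA, PIK3R1, FOXO1 and FOXO3), against 9.76% of genes, and 3 of 9 in H1, against 7.15%. In bulk RNA, fewer cells of a type and less RNA per cell cannot be told apart. In H9 the 10 neuronal markers summed to 4773 to 5796 CPM with vehicle and to 6174 to 6255 CPM with dexamethasone, although 0 of the 10 passed by edgeR and 6 had a fitted difference above 0. In H1 the neuronal sums overlapped (3912 to 3963 and 3783 to 4383 CPM). The 8 astrocyte markers in H1 summed to 784 to 859.9 CPM with vehicle and to 720.4 to 739 CPM with dexamethasone. Of these 8, 0 passed and 3, ALDH1L1 among them, had a fitted difference above 0. In H9 the astrocyte sums overlapped (1249 to 1784 and 1674 to 2102 CPM). The oligodendrocyte lineage markers in H1 summed to 92.3 to 94.7 CPM with vehicle and to 96.6 to 107 CPM with dexamethasone. SOX10, a defining gene of that lineage, had at most 1 read in any library, with vehicle or with dexamethasone. The part of these marker sums in the members' values was not tested.

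Between the lines, 5 of the 9 members differed in the vehicle cultures. FOXO1, INSR, IRS2 and IRS1 were higher in H9, 4 members against 25.7% of all genes, and PIK3R3 was lower, 1 member against 21.2%. PIK3R3, a regulatory subunit that lacks the amino-terminal domains of the long PIK3R1 product, had the widest gap. It stood at 62.8, 83.6 and 42.7 CPM in the H9 vehicle cultures and at 199.8, 227 and 206 CPM in the H1 vehicle cultures, a difference of -1.74 ± 0.19 (adjusted p = 2.22e-05). The groups were far apart, and the difference was -1.53 ± 0.11 without H9 vehicle culture 3.

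FOXO1 was 0.99 ± 0.10 higher in H9 (adjusted p = 1.51e-05), with H9 vehicle values from 23.5 to 26.7 CPM and H1 values from 11.8 to 13.2 CPM. INSR was 0.91 ± 0.19 higher (adjusted p = 0.00213). For INSR the size rested on 1 library, since it was 0.57 ± 0.07 without H9 vehicle culture 3, still past the threshold. IRS2 was 0.72 ± 0.11 higher, with 162 to 211 CPM in H9 and 103 to 115 CPM in H1, and IRS1 was 0.47 ± 0.09 higher, with 96.6 to 114 CPM against 73.8 to 74.7 CPM. The same 5 members passed without H9 vehicle culture 3, when 58.6% of all genes passed.

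**Figure D3:**
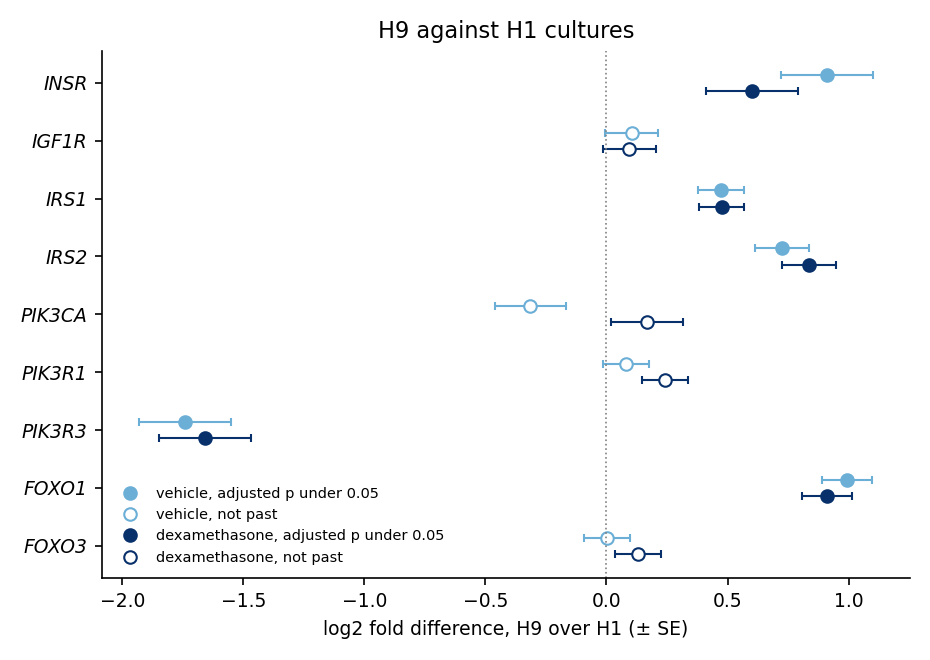
Log2 difference of H9 over H1 with its SE (x axis) for each gene (y axis), in vehicle and in dexamethasone cultures. Filled points passed an adjusted p of 0.05. PIK3R3 lies far to the left and FOXO1, INSR, IRS2 and IRS1 to the right of 0 under both treatments.

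The other 4 members did not pass between the vehicle cultures. The differences were 0.11 ± 0.11 for IGF1R, 0.08 ± 0.10 for PIK3R1, 0.00 ± 0.10 for FOXO3 and -0.31 ± 0.15 for PIK3CA. Leaving out H9 vehicle culture 1 brought PIK3CA past the threshold, at -0.47 ± 0.16 (adjusted p = 0.0292), and leaving out H9 vehicle culture 3 gave -0.15 ± 0.10 (adjusted p = 0.18). Without H9 vehicle culture 3 the differences of IGF1R (-0.02 ± 0.07) and FOXO3 (-0.08 ± 0.08) lay below 0, and that of PIK3R1 was -0.0037 ± 0.07. In the dexamethasone cultures the same 5 members passed, 4 higher in H9 against 22.5% of genes and 1 lower against 21.2%. PIK3R1 was 0.24 ± 0.10 apart there (adjusted p = 0.0574), and without H9 vehicle culture 3 it passed as higher in H9 at 0.24 ± 0.06 (adjusted p = 0.00188), so that 6 members passed against 64.6% of genes. By overlap alone, 4 members were higher in every H9 vehicle culture and 2 lower, against 27.5% and 27.2% of genes. In the dexamethasone cultures 6 were higher and 1 lower, against 33.7% and 34.5%.

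The lines also differed in their cell markers. Genes of dividing cells summed to 65.4 to 92.0 CPM in the H9 vehicle cultures and to 446 to 513 CPM in those of H1, and 8 mesenchymal genes to 233 to 381 CPM and 1821 to 3271 CPM. Neuronal genes summed to 4773 to 5796 CPM in H9 against 3912 to 3963 CPM in H1, and astrocyte genes to 1249 to 1784 CPM against 784 to 860 CPM, where 859.9 was the highest H1 value. The genes of a list did not all go with its sum. Of the 8 astrocyte genes 4 had a fitted difference above 0, and SPARCL1 alone stood at 699 to 1028 CPM in H9 and 220 to 225 CPM in H1. Of the 8 mesenchymal genes 2, TWIST1 among them, had a difference above 0. No marker of these lists was at 0 in all libraries of a group. Line, differentiation and cell makeup cannot be told apart in this design.

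Per length, the regulatory subunits took different shares in the lines. In H9 vehicle cultures PIK3R1 stood at 13.0 ± 1.4 CPM per kb of exon and PIK3R3 at 8.51 ± 2.76 (SD, n = 3). In H1 vehicle cultures PIK3R1 was at 12.3 ± 0.36 and PIK3R3 at 28.5 ± 1.9 CPM per kb. PIK3R1 thus made up 60.8% ± 10.4 of the pair in H9 and 30.2% ± 1.9 in H1, as a level and not a test. With dexamethasone its share was 68.8% ± 3.4 in H9 and 37.2% ± 1.9 in H1. In H1 the shares did not overlap between treatments (28.2% to 32.0% against 35.2% to 39.0%), and in H9 they did, because H9 vehicle culture 3 was at 71.4%. PIK3R3 shares 1292 exon bases with a readthrough gene on its own strand, and PIK3R2, the remaining regulatory subunit gene of this class, was listed at 0 in all 12 libraries and overlaps a readthrough gene over 87.2% of its exon bases.

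**Figure D4:**
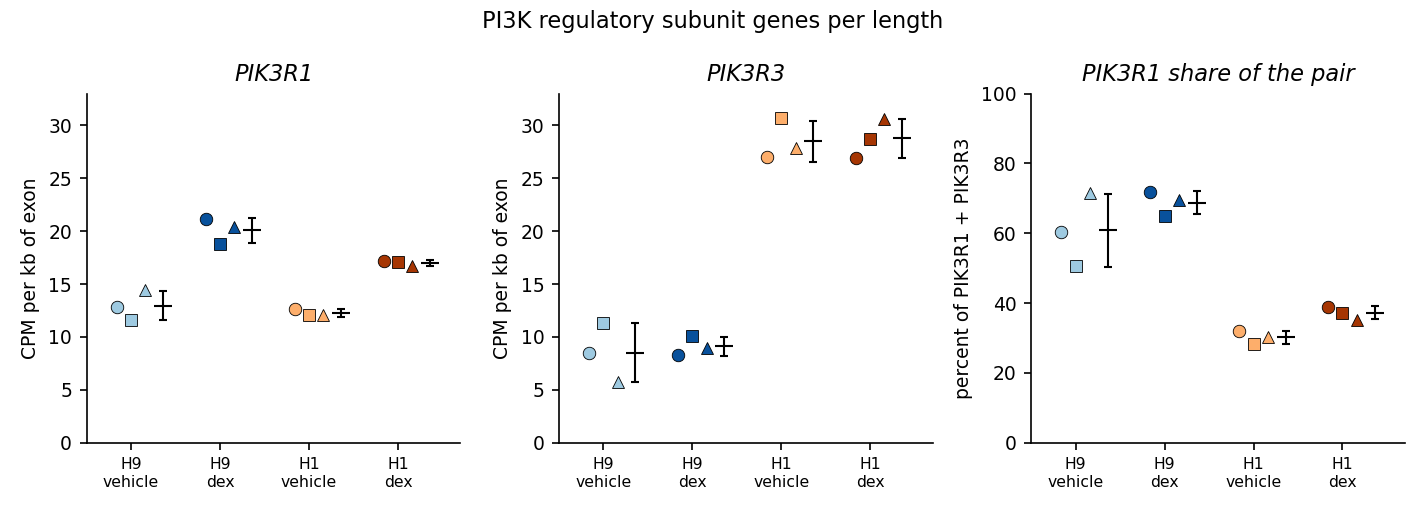
Levels of PIK3R1 and PIK3R3 in CPM per kb of exon (left and middle, on 1 scale) and PIK3R1 as a percentage of their sum (right) in the 12 cultures by line and treatment. Points are cultures and the bar beside them is the mean ± SD of 3. PIK3R3 is higher in H1, PIK3R1 is higher with dexamethasone, and the share is near 30.2% in H1 vehicle cultures.

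The order of the members per length differed between the lines. In H9 vehicle cultures IRS2 was highest at 22.2 ± 3.3 CPM per kb, followed by IGF1R at 16.6 ± 2.4 and PIK3R1. Below IRS1, at 10.4 ± 0.96, each gene overlapped its neighbour, down to FOXO3 at 3.66 ± 0.35. In H1 vehicle cultures PIK3R3 was highest, then IGF1R at 15.5 ± 0.17, with IRS2 at 13.4 ± 0.79 and PIK3R1 overlapping, and FOXO1 was lowest at 2.03 ± 0.12. With dexamethasone PIK3R1 was the gene with the next highest level after IRS2 in H9, at 20.1 ± 1.2, and after PIK3R3 in H1, at 17.0 ± 0.27. In both cases its cultures did not overlap those of the gene above or below.

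The genes whose levels followed PIK3R1 most closely were found by Pearson correlation over the 12 libraries. The correlation was taken on log2 CPM with the mean of each line subtracted, for 14967 genes that include the members. Outside the members the closest were FKBP5 (r = 0.98), RASSF4 (0.97), DEPP1 (0.96), PER1 (0.95) and CDH20 (0.95). Among the members the correlation was 0.90 for FOXO3, 0.85 for FOXO1, 0.55 for IRS2, 0.39 for PIK3CA, -0.01 for INSR, -0.04 for IRS1, -0.05 for PIK3R3 and -0.40 for IGF1R. These values share libraries and treatment groups and are a description.

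Of 93 other genes of the pathway, listed by role, 79 could be tested. Over both lines 2 rose with dexamethasone and 0 fell, beside the 0.101% of all genes called, with a median change of 0.03 against -0.01 for all genes tested. DDIT4, an inhibitor of mTOR complex 1, stood at 30.5, 34.5 and 25.3 CPM in H9 vehicle cultures and at 48.6, 53.8 and 49.6 CPM with dexamethasone, and in H1 at 55.1, 61.8 and 56.5 CPM and 73.9, 72.7 and 83.8 CPM. No treated culture of a line overlapped its vehicle cultures, and the change was 0.58 ± 0.08 (adjusted p = 0.0194). KLF15, a transcription factor of fasting metabolism, changed by 0.66 ± 0.10 (adjusted p = 0.0258), with 12.8 to 15.8 CPM in H9 vehicle cultures and at least 19.4 CPM in the treated ones, and 6.65 to 8.90 CPM against at least 12.01 CPM in H1. These counts moved with single libraries. In 9 of the 12 fits without 1 library 0 of these genes passed, and 1 passed without H9 vehicle culture 2 or H1 dexamethasone culture 2. Without H9 vehicle culture 3, 5 passed, then also BCL6, GADD45A and IGFBP5, and the share of all genes called rose as well, to 0.774%.

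The genes next in order did not pass. BCL6, a transcriptional repressor, differed by 0.35 ± 0.08 (adjusted p = 0.244), and PIK3IP1, an inhibitor of PI3K, by -0.38 ± 0.10 (adjusted p = 0.432). In H9 and in H1 taken singly 0 of the 79 passed by edgeR, against 0.0673% and 0.0505% of all genes. At an unadjusted p under 0.05 there were 16 of the 79 in H9 and 5 in H1, beside 2898 and 526 of all 17819 genes, and DESeq2 called 5 and 1, against 0.875% and 0.14% of genes. The difference between lines gave 9 genes at an unadjusted p under 0.05, and 0 past the threshold by edgeR, DESeq2 or limma-voom. Of 14 tested FOXO target genes, 14 had a change above 0 in H9, with a median of 0.29 against -0.02 for all genes, and 7 in H1, with a median of -0.01. Without H9 vehicle culture 3 the H9 count was 12 and the median 0.14, and 1 gene, GADD45A, passed, against 0.293% of all genes. KLF15 is on this list.

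**Figure D5:**
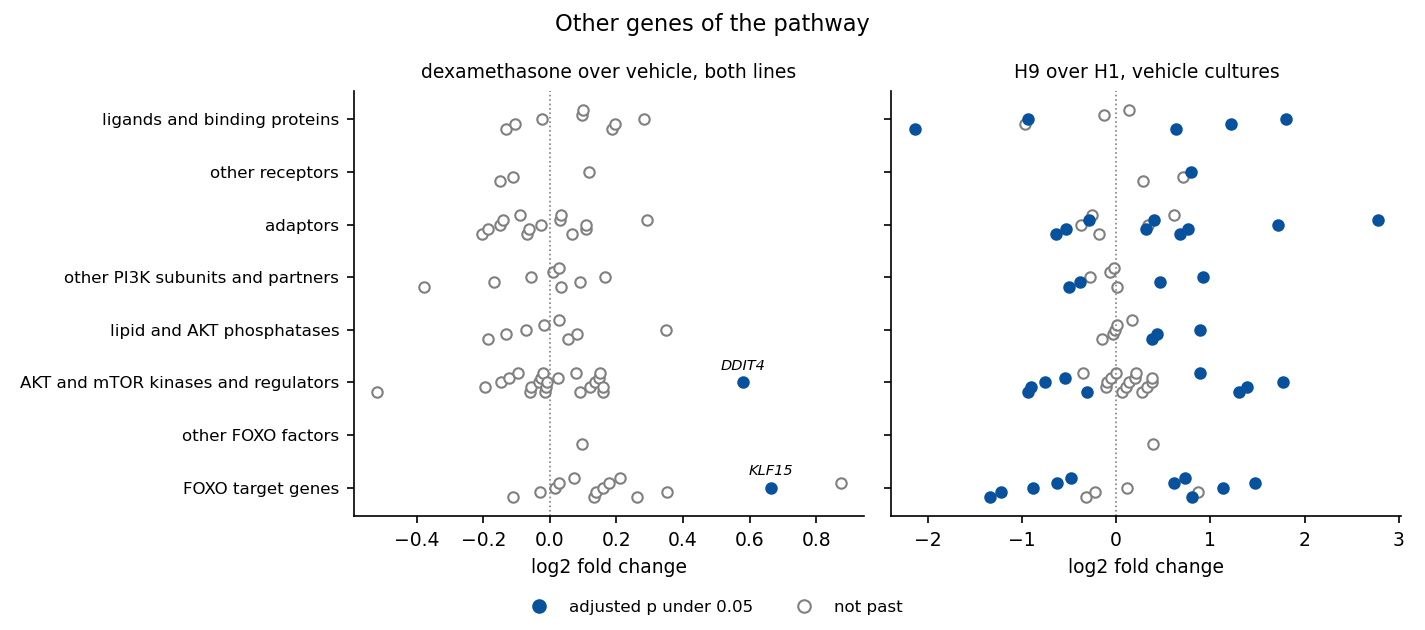
Log2 fold change (x axis) of the 79 tested pathway genes by role (y axis) for dexamethasone over vehicle in both lines (left) and for H9 over H1 in vehicle cultures (right). Each point is a gene and filled points passed an adjusted p of 0.05. DDIT4 and KLF15 are the filled points on the left, and 41 genes are filled on the right.

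Between the lines, 24 of the 79 were higher in H9 vehicle cultures and 17 lower, beside 25.7% and 21.2% of all genes, with a median of 0.11 against 0.03 for all genes. Among the higher were the adaptors IRS4 (2.78 ± 0.22) and SHC2 (1.72 ± 0.26), the ubiquitin ligase FBXO32 (1.47 ± 0.18) and the kinase SGK1 (1.38 ± 0.14). SHC2 was at 187.5 CPM in H9 vehicle culture 3 and at 78.3 and 90.4 CPM in its sister cultures. Among the lower were the growth factor binding protein IGFBP3 (-2.14 ± 0.30), CCNG2 (-1.34 ± 0.17), catalase, CAT (-1.22 ± 0.13), and DDIT4 (-0.94 ± 0.12). DDIT4 was thus lower in H9 and rose with dexamethasone over both lines.

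Other core genes are given as levels. The catalytic subunit genes PIK3CB and PIK3CD stood at 35.8 ± 4.4 and 9.12 ± 2.46 CPM in H9 vehicle cultures and at 25.9 ± 0.48 and 9.01 ± 0.89 CPM in those of H1 (SD, n = 3). AKT1 and AKT2 stood at 183 ± 2.1 and 144 ± 1.8 CPM in H1 vehicle cultures. AKT1S1 was listed at 0 in all libraries, and FOXO4 stood at 3.02 ± 0.33 CPM in the vehicle cultures of H9 against 2.28 ± 0.18 CPM for H1. The handling of reads that match several places is not given in the sources used here, so a low count is not evidence of low expression.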

How the data were processed

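The authors deposited 1 table of raw, whole-number counts per library, made with STAR 2.5.3a and HTSeq on builds hg38 and GRCh38.p10 per the submitters' processing notes. Neither strand setting nor annotation release is stated in the labels, so reads of overlapping or antisense genes cannot be told apart. Groups and culture numbers came from the labels. Genes were filtered with filterByExpr of edgeR 4.0.16, scaled by TMM and tested by quasi-likelihood with 1 mean per group over all libraries (8 residual degrees of freedom, Benjamini-Hochberg threshold 0.05 over 17819 genes). Standard errors were derived from the log2 fold change and its F statistic. CPM are TMM-scaled, and CPM per kb uses the union of exons in GENCODE 29. DESeq2 1.42.0 and limma-voom (limma 3.58.1), other scalings and filters, the culture number as a block and each library left out were alternatives. Only the edgeR fit described above, DESeq2 and limma-voom were tested on simulated data. All members are described. Of the pathway list, the 4 largest changes each way past the threshold at a mean of 1 CPM or more were named per comparison, or the 4 smallest p-values where fewer than 4 passed, with a fixed set of core genes, some of which are not reported here. The members and lists were chosen with earlier results of these data known, among them that of PIK3R1. GADD45A and IGFBP5 in the fit without H9 vehicle culture 3, and SHC2 and the progenitor markers by library, were picked after their values were seen.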

Additional observations from a re-analysis of the deposited data

How the results depend on the processing

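Over both lines PIK3R1 passed in all 21 alternatives. The number of members called for dexamethasone over both lines was 2 with DESeq2 and ranged from 1 to 2 when 1 library was left out. In H9 it was 2 with DESeq2, 0 with the H9 libraries fitted alone, and 0 to 1 with 1 library left out. In H1 it was 1 with DESeq2 and 1 with the H1 libraries fitted alone, and 0 to 2 with 1 library left out. The number of pathway genes called over both lines was 4 with DESeq2 and 0 to 5 with 1 library left out. In H9 it was 5 with DESeq2, 1 with no filter on low counts, 1 with a filter of 1 CPM in 3 libraries, 1 with library sizes that leave out mitochondrial and the top 20 genes, and 0 to 3 with 1 library left out. In H1 it was 1 with DESeq2, 2 with the H1 libraries fitted alone and 0 to 2 with 1 library left out. Between the lines 5 to 6 members passed in all alternatives. Of all genes, 46.9% passed between the vehicle cultures with all 12 libraries, and 58.6% without H9 vehicle culture 3.

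Deviations of cultures with the same number correlated weakly across groups (from -0.159 to 0.179). Between the treatments of H1 they correlated at 0.0498 to 0.179, against -0.178 to 0.0732 for unlike numbers. In H9 the values were -0.0145 to 0.113 against -0.134 to 0.0841. The numbers were not taken to pair the cultures, and fits with them as a block are given next. With the culture number as a block, PIK3R1 in H9 had an adjusted p of 0.0859, so 0 members passed there, and 1 pathway gene passed over both lines. 2 fits were chosen after seeing the data. With the block and without H9 vehicle culture 3, 2 members passed over both lines and 2 in H1, and 5 pathway genes passed over both lines, 5 in H9 and 3 in H1. With the H9 libraries alone and without that culture, 4 pathway genes passed in H9. For the block fits and the H9 libraries alone, the share of all genes called is not given here. Their counts are thus only a description. Without H9 vehicle culture 3 and without a block, 0.774% of all genes passed over both lines, 0.293% in H9 and 0.326% in H1. The causes of the changes between fits were not tested. Median log2 changes of all genes moved by less than 0.03 between scalings.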
